A study of Mus musculus with 231 samples.

Results

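The last blood library of each CM mouse was compared with control blood of the same month, to describe the miRNAs of peripheral blood mononuclear cells (PBMC) at the end of each mouse's sampling series. CM stands for Cbfb-MYH11, the fusion gene that inversion of chromosome 16 creates in human acute myeloid leukemia (AML). For each of the 7 CM mice of the training cohort, the library of the latest month was taken, which gave 7 libraries out of the 53 CM and 76 Ctrl training libraries and the 231 libraries of the series. Each was set against the mean of the control (Ctrl) libraries of the same month, 34 libraries of 7 Ctrl mice in all. Mice 3338 and 3357 were last sampled at month 4, mouse 3341 at month 6, mouse 3334 at month 6.5 and mouse 3336 at month 7. Sampling went on to month 9 for mouse 3370 and to month 10 for mouse 3368. Month 6.5 is the reading given here to a title with T6p5, and it was set against the Ctrl libraries of month 6.

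All mice were C57BL/6 and received poly(I:C) at 6 to 8 weeks of age, 14 mg/kg every other day for 7 doses. The CM mice (genotype label CHW, 4 females and 3 males) were Cbfb56M/+/Mx1-Cre conditional knock-ins, in which poly(I:C) switches on Mx1-Cre, a recombinase active in blood-forming cells and in other interferon-responsive tissues. The Ctrl mice (labels HW, CW or WT, 2 females and 5 males) received the same injections. The meaning of these codes is not given. By the labels Ctrl littermates lack the transgene, while the study's methods allow them the silent knock-in allele. The labels do not say which mice were leukemic when they were last sampled, and the fusion transcript was not measured here. The paper describes its CM mice as followed until they were moribund with leukemia, and counts 6 of them where 7 are used here.

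A miRNA is cut from a hairpin RNA, and either arm of the hairpin, named 5p or 3p, can be loaded into an Argonaute protein. It then lowers target mRNAs that pair with its seed, bases 2 to 8. In AML driven by this fusion, myeloid progenitors fail to mature, and immature blasts enter the blood beside normal lymphocytes and monocytes. In bulk PBMC, fewer cells of a type and less of a miRNA per cell cannot be told apart.

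The mature sequences of the miRNAs that the results turn on are given 5′ to 3′ with the seed in capitals, from RefSeq (GRCm38.p6), which held 38 of the 46 miRNAs named by rule. The first set shows single miRNAs described below that were called higher or lower in CM blood. Other miRNAs had larger differences in either direction.
miR-126a-3p: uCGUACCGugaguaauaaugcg
miR-31-5p: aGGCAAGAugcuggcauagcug
miR-340-3p: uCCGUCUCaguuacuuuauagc
miR-27a-5p: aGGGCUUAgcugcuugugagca
miR-451a: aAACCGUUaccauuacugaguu
miR-345-5p: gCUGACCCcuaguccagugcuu
miR-350-3p: uUCACAAAgcccauacacuuuc
The second set shows families whose members share a seed, and which are described as families.
miR-132-3p: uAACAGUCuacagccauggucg
miR-212-3p: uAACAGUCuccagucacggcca
miR-221-3p: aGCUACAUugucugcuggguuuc
miR-222-3p: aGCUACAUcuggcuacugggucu
miR-195a-5p: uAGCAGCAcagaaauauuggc
miR-497a-5p: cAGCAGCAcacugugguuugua
miR-181a-5p: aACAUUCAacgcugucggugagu
miR-181c-5p: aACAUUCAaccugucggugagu
let-7e-5p: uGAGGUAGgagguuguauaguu
let-7f-5p: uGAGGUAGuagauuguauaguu
let-7g-5p: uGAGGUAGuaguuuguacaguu
The mature miR-126a-3p lies at chr2:26591402-26591423 on the plus strand, within the span of Egfl7. The span of Rnf130 holds miR-340-3p (chr11:50069762-50069783, plus strand), and that of Cep170 holds miR-350-3p (chr1:176772342-176772363, minus strand). The gene table used for these spans gave neither strands nor exons. Genes with symbols that begin with Mir, or with Gm and a digit, were left out of the search, host transcripts so named included. Among the other genes, no span held miR-31-5p (chr4:88910614-88910635, minus strand) or miR-451a (chr11:78073186-78073207, plus strand).

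Total counts of the 41 libraries lay between 2228562 and 6134681. Markers of mononuclear blood cells were present at high levels in every last CM library. The pan-hematopoietic miR-142a-3p ranged from 13551 to 22521 CPM (counts scaled to a common library size with TMM factors), the lymphocyte miR-150-5p from 7124 to 46117 CPM and the myeloid miR-223-3p from 1954 to 6117 CPM. None of these 3 markers passed the test of the 7 differences (adjusted p = 0.252, 0.218 and 0.218, limma).

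Libraries of 3 mice stood apart and touch the results that follow. Mouse 3368, the last to be sampled, had 62 of 528 tested miRNAs (11.7%) more than 1 log2 unit from the Ctrl mean, against 27.7% to 52.1% in the other 6 mice and 5.49% to 23.9% in Ctrl libraries set against the other Ctrl of their month. Spearman's rho across the 528 miRNAs, which are not independent replicates, was between -0.06 and 0.06 for the 6 pairs of last profiles that include mouse 3368 and between 0.41 and 0.77 for the other 15 pairs. The running numbers in the titles of CM mouse 3334 and Ctrl mouse 3335 cross at month 6. Months 0 to 5 of Ctrl mouse 3335 are followed without a gap by months 6 and 6.5 of CM mouse 3334, with numbers 1 to 8, and months 0 to 5 of CM mouse 3334 are followed likewise by months 6 to 10 of Ctrl mouse 3335. The library labelled Ctrl 3335, month 6, had 581 CPM of miR-126a-3p, the highest of the 34 Ctrl libraries, and the library labelled CM 3334, month 6, had 163 CPM. Against the other 6 Ctrl libraries of month 6, the first correlated with the last profiles of 5 other CM mice (3368 left out) at rho 0.362 to 0.496 and the second at -0.198 to -0.122. For the month 6.5 library of mouse 3334 rho was 0.556 to 0.75. In the month 6 titles of mice 3334 and 3335, the last number falls among those with the other title's G number. The labels do not explain that code. At month 5 miR-126a-3p was at 258 CPM in the library labelled Ctrl 3335 and at 144 CPM in that labelled CM 3334. At month 4 it was at 95.7 and 274 CPM. Whether libraries of these mice were exchanged, at month 6 or before, was not tested.

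The 7 differences were tested against 0 with limma for the 528 miRNAs that passed the filter on low counts, and a miRNA was called at a Benjamini-Hochberg (BH) adjusted p under 0.05. In the last CM libraries, 229 miRNAs (43.4%) were called, 92 higher (17.4%) and the others lower (25.9%). All 7 differences had the same sign in 48.5% of the called miRNAs and in 22.2% of all tested miRNAs. The size of the difference was over 1 log2 unit for 57 of the higher and 78 of the lower miRNAs. The median over all tested miRNAs was -0.16, and directions are read against that shift. With raw column totals the median was -0.27 and the calls were 76 higher and 167 lower, and with each library centred on its own median 49.8% of 227 calls were higher. The Ctrl error is not part of the test, so the counts were also tested with edgeR with month as a factor. It called 291 miRNAs (55.1%), 144 higher (27.3%) and 147 lower (27.8%), and 220 of these were called in the same direction by limma. The edgeR fit takes the 34 Ctrl libraries as independent although they come from 7 mice, so its p-values can be too small. With 7 CM and 7 Ctrl mouse levels as units, limma called 233 miRNAs, 227 of them among the 229.

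**Figure D1:**
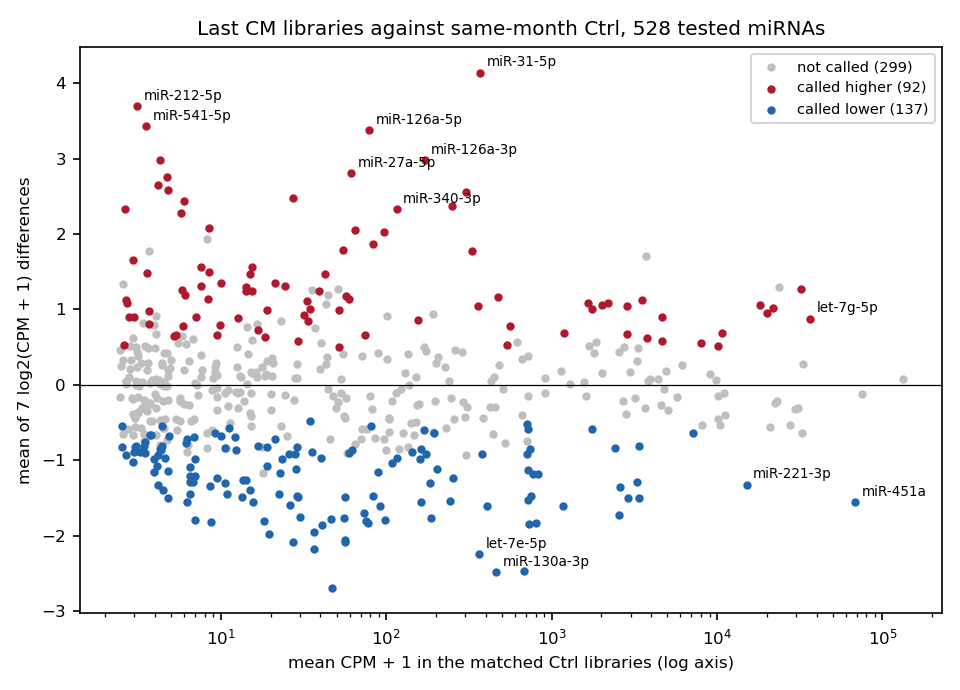
Each point is 1 of the 528 tested miRNAs, by its mean CPM + 1 in the matched Ctrl libraries (log axis) and the mean of its 7 log2(CPM + 1) differences. Red points are the 92 called higher, blue points those called lower and grey points the rest, and called miRNAs are found from a few CPM up to miR-451a at 68226 CPM.

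Among miRNAs above 1000 CPM in Ctrl blood, 19 of 77 were called higher and 12 lower, and between 100 and 1000 CPM 11 of 94 were called higher and 30 lower. The most abundant bin thus had more higher than lower calls, and the bin below it more lower calls.

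In mouse 3368 the called miRNAs differed least. The median difference of the 92 higher miRNAs was 0.36 in mouse 3368 and 0.96 to 1.68 in the other 6 mice. For the lower miRNAs it was -0.01 in mouse 3368 and -1.69 to -0.85 in the others. Without this library, 272 miRNAs were called, 223 of them among the 229. With the library labelled month 6 in place of month 6.5 for mouse 3334, 61 were called, and 23 of the 43 called miRNAs named by rule lost their call. Without Ctrl mouse 3335 the count was 234.

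miR-126a, which restrains the cycling of hematopoietic stem cells and is encoded within Egfl7, had on both arms some of the largest increases over Ctrl blood. miR-126a-3p stood at 1861 and 1377 CPM at month 4 in mice 3338 and 3357, 4584 CPM at month 6 in mouse 3341, 2552 CPM in mouse 3334, 1412 CPM in mouse 3336, 464 CPM in mouse 3370 and 218 CPM in mouse 3368. The 34 Ctrl libraries ranged from 90.7 to 581 CPM, with a median of 148 CPM. Each CM library lay above every Ctrl library of its month, and 5 of the 7 lay above all 34. The mean difference was 2.98 (SD 1.42, n = 7; 7.90-fold on the CPM + 1 scale; limma, adjusted p = 0.00361). The 5p arm, miR-126a-5p, differed by 3.38 (SD 1.48; adjusted p = 0.00337), from 0.82 in mouse 3368 to 5.11 in mouse 3341. With month-centred levels of 7 CM and 7 Ctrl mice as units, both arms reached p = 0.000583 in an exact two-sided permutation test, the smallest p this design allows. With the month 6 library in place of month 6.5 for mouse 3334, the miR-126a-3p difference was 2.42 and remained called.

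miR-31-5p, encoded in the same chromosomal region as the tumor suppressor Cdkn2a, had the largest mean difference among the miRNAs named by rule. It stood at 12852 and 5838 CPM at month 4 in mice 3338 and 3357, and at 14847, 12829 and 8320 CPM in mice 3341, 3334 and 3336. It was 2034 CPM in mouse 3370 and 361 CPM in mouse 3368, and the Ctrl libraries ranged from 114.9 to 1460 CPM. Thus 6 of 7 CM libraries lay above all 34 Ctrl libraries, and only that of mouse 3368 overlapped with Ctrl. The mean difference was 4.14 (SD 1.81, n = 7; 17.6-fold; adjusted p = 0.00332). Without mouse 3368 it was 4.70.

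miR-132 and miR-212 are cut from neighboring hairpins on chromosome 11 and share a seed on their 3p arms. All 4 arms were called higher. miR-132-3p, at 16.3 to 52.8 CPM in Ctrl blood, reached 929 CPM in mouse 3341 and 356 CPM in mouse 3338, and in mouse 3368 it was 30.3 CPM, within the Ctrl range of its month. Its mean difference was 2.48 (SD 1.53; adjusted p = 0.00581), beside 2.59 for miR-212-3p, 2.75 for miR-132-5p and 3.70 for miR-212-5p. Mouse 3341 had the highest value of all 7 mice for miR-132-3p, miR-132-5p and miR-212-5p.

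The imprinted Dlk1-Dio3 cluster on chromosome 12 is expressed from the maternal chromosome and is known from embryonic and stem cells. Of 56 listed miRNAs of the cluster, only 4 passed the filter on low counts, and members can pass it through the CM libraries in which they are high, so nothing is read from the share called. Summed over all 56 the level was 13.8 to 513 CPM in CM and 6.63 to 41.2 CPM in Ctrl libraries. The called members were miR-541-5p at 3.43 (SD 1.92), miR-379-5p at 2.65 (SD 1.67) and miR-411-5p at 2.34, and miR-127-3p (0.30) was not called. For miR-541-5p, CM blood stood at 175 and 18.3 CPM in mice 3338 and 3357, 35.6 CPM in mouse 3334, 166 CPM in mouse 3336, 43.7 CPM in mouse 3370 and 13.3 CPM in mouse 3368. In mouse 3341 it was 4.13 CPM, within the Ctrl range of 0.443 to 5.88 CPM. In mouse 3341, which had the highest miR-126a, miR-541-5p differed by 0.54 and miR-379-5p by -0.11, and the median over the 4 tested members was -0.36, against 1.65 to 4.53 in the other 6 mice.

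miR-298-5p, from the imprinted Gnas locus, was uneven in another way. It stood at 392 CPM in mouse 3357, 153 CPM in mouse 3370 and 54.7 CPM in mouse 3338, and at 8.66 and 4.69 CPM in mice 3334 and 3368, with differences of 0.75 in mouse 3341 and 1.38 in mouse 3336. Ctrl libraries ranged from 1.66 to 8.31 CPM. Each CM library was above every Ctrl library of its month, and the mean difference was 2.44 (SD 2.14; adjusted p = 0.0181).

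The cluster of miR-182, miR-183 and miR-96, listed here with erythroid miRNAs and otherwise known from sensory organs, was led by mouse 3334. miR-182-5p was at 14457 CPM in mouse 3334, 1982 and 1901 CPM in mice 3338 and 3341, and 242 to 601 CPM in the other 4, against a Ctrl range of 31.8 to 1077 CPM. It differed by 2.38 (SD 1.78; adjusted p = 0.0113), miR-183-5p by 2.02 and miR-96-5p by 1.79. With the month 6 library in place of month 6.5 for mouse 3334, the miR-182-5p difference was 1.46 and was not called (adjusted p = 0.0550).

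At least 6 of the 7 last CM libraries lay above every Ctrl library of their month in 45 miRNAs (8.52%) and below in 55 (10.4%). In 13 of 528 tested miRNAs (2.46%), all 7 lay above every Ctrl library of their month. Besides both arms of miR-126a and miR-298-5p, these were miR-6390 (2.99), miR-340-3p (2.33), miR-499-5p (2.08), miR-700-3p (1.86), miR-3968 (1.77), miR-128-1-5p (1.48), miR-671-3p (1.25), miR-674-3p (1.25), miR-1955-5p (1.24) and miR-423-3p (1.00). miR-340-3p had values of 1536, 577, 408, 953, 679, 315 and 152 CPM in mice 3338, 3357, 3341, 3334, 3336, 3370 and 3368, and a Ctrl maximum of 288 CPM at month 6. Its order over mice was therefore not that of miR-126a-3p, which peaked in mouse 3341. Without mouse 3368, 36 miRNAs stood above in all 6 libraries and 48 below, and without Ctrl mouse 3335 the counts were 23 above and 9 below. With the month 6 library of mouse 3334 in place of month 6.5, miR-671-3p alone stood above in all 7, and none stood below.

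**Figure D2:**
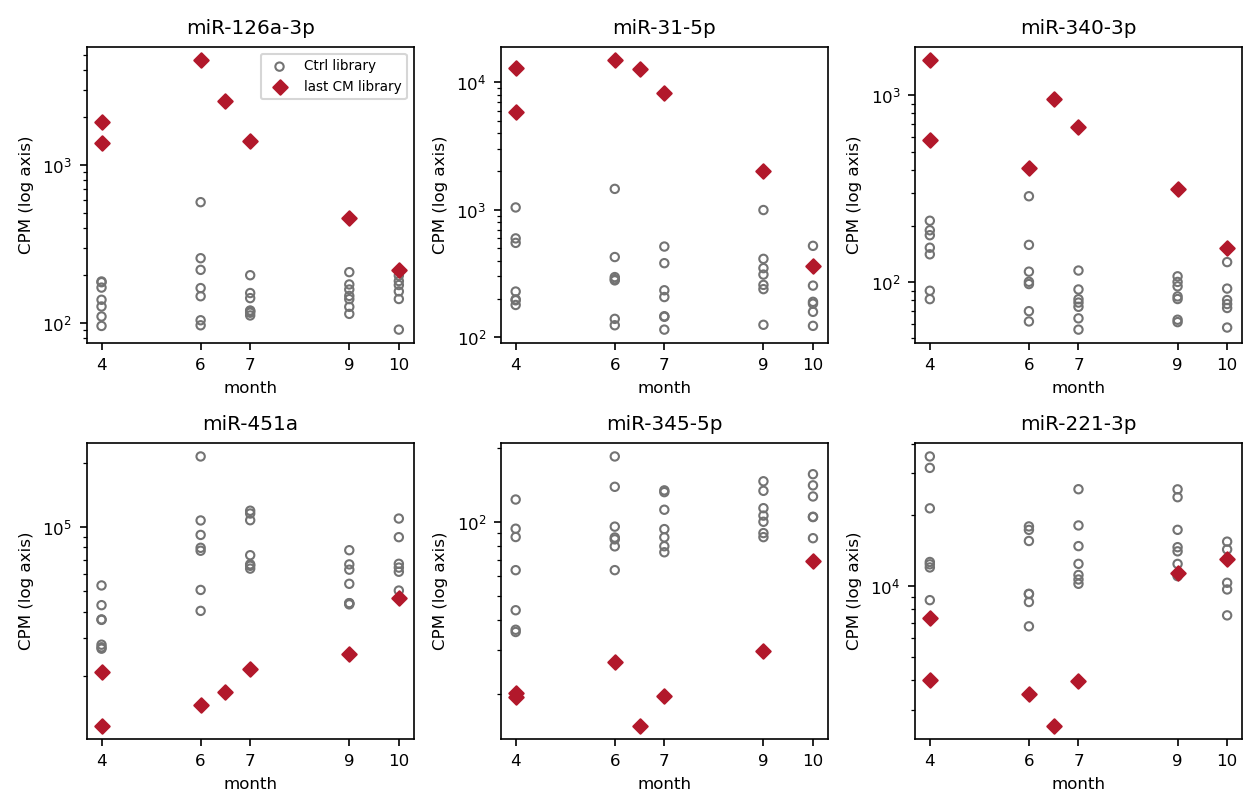
CPM (log axis) by month of 6 miRNAs in the 34 matched Ctrl libraries (open circles) and the 7 last CM libraries (red diamonds). For miR-126a-3p, miR-340-3p, miR-451a and miR-345-5p no CM library overlaps with the Ctrl libraries of its month, and mouse 3368 at month 10 lies within them for miR-31-5p and, with mouse 3370 at month 9, for miR-221-3p.

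In 5 of 528 miRNAs (0.947%), all 7 last CM libraries lay below every Ctrl library of their month, and these were miR-345-5p, miR-574-5p, miR-451a, miR-350-3p and miR-466i-5p. miR-345-5p had 19.4, 20.2, 26.8, 14.8, 19.6, 29.9 and 69.1 CPM in mice 3338, 3357, 3341, 3334, 3336, 3370 and 3368, while Ctrl libraries ranged from 35.7 to 184 CPM. The decrease, -1.80 on average (SD 0.60; adjusted p = 0.00332), was seen in all 7 mice, from -2.65 in mouse 3334 to -0.76 in mouse 3368. miR-350-3p, from the span of Cep170, stood at 131.5 to 328 CPM in 6 mice and at 587 CPM in mouse 3368, with Ctrl libraries between 257 and 1056 CPM (difference -1.53, SD 0.61; adjusted p = 0.00361). The other arm of that hairpin, miR-350-5p, differed by 0.46 and was not called.

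Among the other named decreases with all 7 differences below 0 were those of miR-326-3p (-1.60, SD 0.77), miR-1249-3p (-1.60, SD 0.70), miR-872-3p (-1.49, SD 0.67) and miR-1895 (-1.48, SD 0.84). miR-326-3p stood at 51.3 to 168 CPM in 6 mice and at 394 CPM in mouse 3368, against 185 to 746 CPM in Ctrl blood, so 6 of the 7 lay below all 34 Ctrl libraries. Among the increases, miR-3963 (2.56, SD 1.65) was led by mouse 3334, with 6434 CPM against 189 CPM in mouse 3368 and a Ctrl range of 53.9 to 1004 CPM. miR-669a-3p (-1.60, SD 0.52) rested on few counts, with 0 CPM in mouse 3370 and at most 10.7 CPM in the others, and only 1 of the 7 lay below every Ctrl library of its month.

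miR-451a, the most abundant erythroid miRNA, was lower in each last CM library than in any Ctrl library of the month. It stood at 11650 and 20725 CPM at month 4, 14494 CPM in mouse 3341, 16742 CPM in mouse 3334, 21407 CPM in mouse 3336, 25214 CPM in mouse 3370 and 46323 CPM in mouse 3368. The Ctrl libraries ranged from 26771 to 214109 CPM. The mean difference was -1.55 (SD 0.75, n = 7; 2.93-fold lower; adjusted p = 0.00424). miR-144-3p, cut from the same primary transcript, differed by -0.53 (adjusted p = 0.0980), and miR-486b-5p by -0.32 (adjusted p = 0.319). Of 10 listed erythroid miRNAs 3 were called higher, all of the miR-182 cluster, and miR-451a alone was called lower. Their summed level was 32166 to 86504 CPM in CM and 57192 to 342108 CPM in Ctrl libraries, and its part in the other decreases was not tested.

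**Figure D3:**
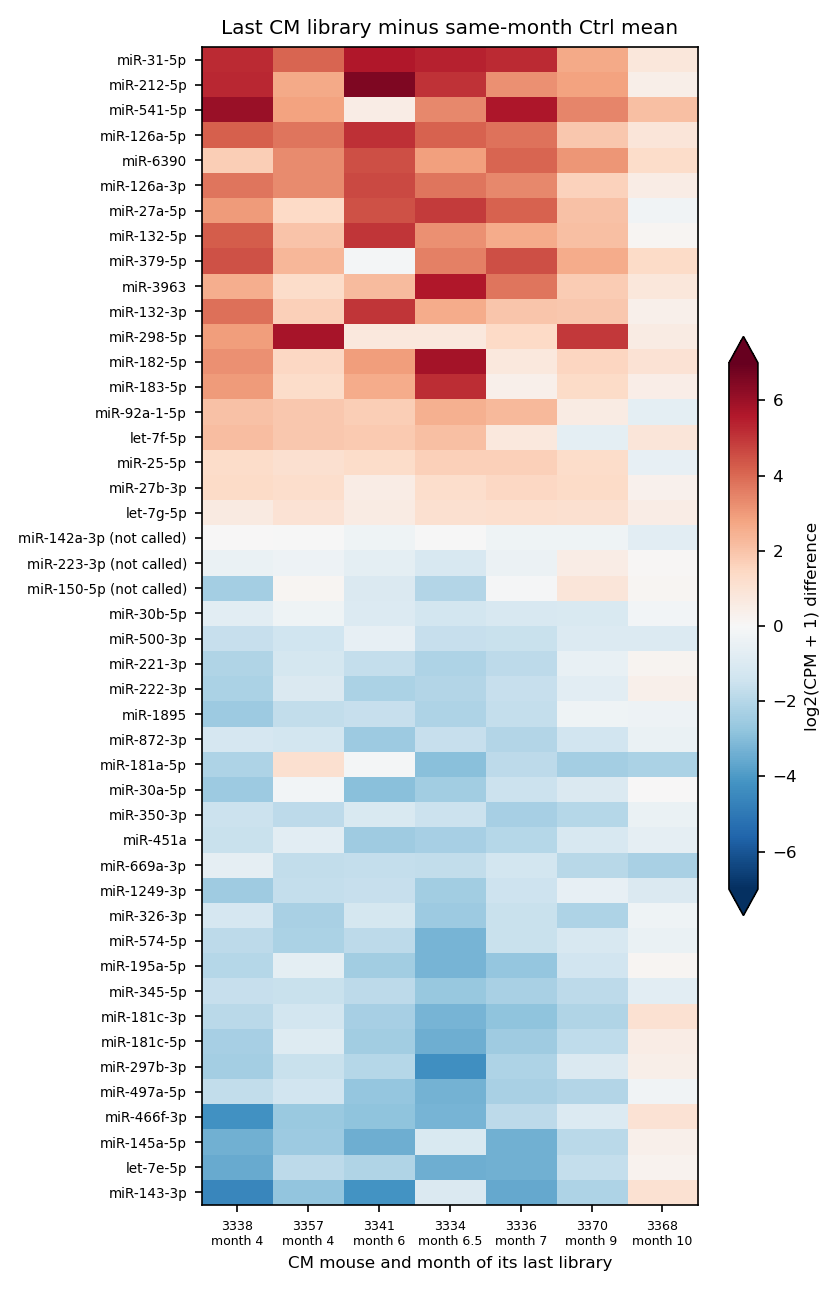
Difference of each last CM library from the mean of the same-month Ctrl libraries, in log2(CPM + 1) units, for the 46 miRNAs named by rule (rows, sorted by the mean) and the 7 CM mice (columns, sorted by month). Red is higher and blue lower in CM, and the column of mouse 3368 is the palest, where miR-143-3p, miR-466f-3p and both arms of miR-181c are among the miRNAs above 0.

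miR-221 and miR-222, which share a seed and target Kit, the receptor of stem cell factor, and the cell cycle inhibitor Cdkn1b, were lower on all 4 tested arms. miR-221-3p stood at 3988 and 7305 CPM at month 4, 3494, 2568 and 3947 CPM in mice 3341, 3334 and 3336, 11365 CPM in mouse 3370 and 13041 CPM in mouse 3368, against 6754 to 35309 CPM in Ctrl blood. Mice 3370 and 3368 were within the Ctrl range of their month, and the other 5 below it. The differences were -1.32 (SD 0.88; adjusted p = 0.0101) for miR-221-3p and -1.36 (SD 0.96; adjusted p = 0.0117) for miR-222-3p. They stand in a list of 18 miRNAs headed growth suppressors, although lowering Cdkn1b is known to favor growth. Of its 10 tested members 7 were called lower and none higher, beside 25.9% lower and 17.4% higher over all tested miRNAs, with a median of -0.89 beside -0.16. The other 3 called members were both arms of miR-139, a miRNA silenced in several forms of AML, and miR-34c-5p, a p53 target, with miR-139-5p at -1.19 and miR-34c-5p at -0.87. The 3 tested members that were not called had positive differences, miR-365-3p at 1.28, miR-193b-3p at 1.19 and miR-34a-5p at 0.91 (adjusted p = 0.0744, 0.0804 and 0.104). Without mouse 3368 the list had 7 lower and 1 higher, and with the month 6 library of mouse 3334 in place of month 6.5, 1 lower. This list and the others were drawn up with earlier results of these data known. Several members share a hairpin or a cluster, so the shares called are descriptions only.

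miR-195a and miR-497a come from a single locus on chromosome 11 and carry the seed of miR-15 and miR-16, which restrain the cell cycle. miR-497a-5p had 2.78 to 9.54 CPM in 6 mice and 33.9 CPM in mouse 3368, with Ctrl libraries between 14.8 and 60.04 CPM (difference -1.96, SD 0.98; adjusted p = 0.00422). miR-195a-5p had 17.9 to 87.4 CPM in 6 mice and 201 CPM in mouse 3368, against 83.97 to 352 CPM (difference -1.76, SD 1.20; adjusted p = 0.0088). The more abundant miR-16-5p, which differs from miR-195a-5p by 2 mismatches, differed by -0.55 and was not called. Of the 10 listed members of the family, 3 were called lower and none higher, near the background of 25.9% lower.

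The miR-181 family, known for tuning antigen receptor signals in lymphocyte development, was lower in 6 of 8 tested arms (25.9% over all tested miRNAs), with a median of -1.20 beside -0.16. miR-181c-5p stood at 74.2 to 393 CPM in 6 mice and at 1048 CPM in mouse 3368, which lay above every Ctrl library of month 10, against a Ctrl range of 432 to 1401 CPM over all months (difference -1.83, SD 1.29; adjusted p = 0.0101). miR-181a-5p had a different order over mice, with 5046 CPM in mouse 3357 and 300 to 2135 CPM in the other 6 (difference -1.50, SD 1.46; adjusted p = 0.0290). Its call was lost in edgeR (-1.31, adjusted p = 0.0507) and when CM mouse 3334, 3336, 3338, 3368 or 3370 or Ctrl mouse 3335 was left out. Without mouse 3334, 3 of the 8 arms were called lower.

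let-7 miRNAs share a seed that targets growth regulators such as Hmga2. Among 9 tested 5p arms, let-7g-5p and let-7f-5p were called higher and let-7e-5p lower, shares near or below those over all tested miRNAs (17.4% and 25.9%). Without mouse 3334, 1 was called higher and 1 lower. let-7g-5p stood at 36580 to 109358 CPM in CM and 19454 to 64088 CPM in Ctrl blood, and its difference of 0.88 had the smallest spread of the 46 named miRNAs after miR-142a-3p (SD 0.29; adjusted p = 0.00502). let-7e-5p had 24.8 to 153 CPM in 6 mice and 464 CPM in mouse 3368, against 166 to 582 CPM (difference -2.24, SD 1.34; adjusted p = 0.00553). let-7f-5p differed by 1.27, with mouse 3370 at -0.68, and its call was lost in edgeR on the same counts (0.98, adjusted p = 0.139). In the deposited CPM table it differed by 0.47 and was not called (limma, adjusted p = 0.0937). It differs from let-7a-5p by 1 mismatch and from let-7g-5p and let-7e-5p by 2. Whether reads of these miRNAs are split differently between the tables was not tested.

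let-7e lies on chromosome 17 with miR-99b and miR-125a, a cluster of long-lived stem cells, and all 6 tested arms of this cluster were called lower, with a median of -1.56. miR-99b-5p differed by -1.61 and miR-125a-5p by -1.48, and in each arm 6 of the 7 mice were below 0. Of 13 tested stem and progenitor miRNAs, 6 were called lower and 2 higher, the latter both arms of miR-126a, beside 25.9% lower and 17.4% higher over all tested miRNAs, and the median was -0.59 beside -0.16. The lower members also included miR-130a-3p at -2.48 (SD 1.75; adjusted p = 0.0088). Without mouse 3334, 3 of the 13 were called lower.

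Endothelial cells and platelets also express miR-126a. Of 9 tested endothelial and vessel wall miRNAs, the 2 arms of miR-126a were called higher, 3 arms of miR-143 and miR-145a, known from smooth muscle, were called lower, and miR-10b-5p, miR-133a-3p, miR-1a-3p and miR-218-5p were not called. Their summed level was 1051 to 7637 CPM in CM and 606 to 2487 CPM in Ctrl libraries, sums that include miR-126a. miR-143-3p stood at 18.9, 70.8, 29.9, 271, 56.0 and 209 CPM in mice 3338, 3357, 3341, 3334, 3336 and 3370, and at 1535 CPM in mouse 3368, against 233 to 1468 CPM in Ctrl blood. The difference was -2.46 (SD 1.97; adjusted p = 0.0135), and mouse 3368 was above every Ctrl library of its month. Of 8 tested platelet and megakaryocyte miRNAs, 3 were called higher, both arms of miR-126a and miR-191-5p (1.05), and miR-130a-3p was called lower. Summed over the listed platelet miRNAs the level was 28172 to 74817 CPM in CM (median 55812 CPM) and 22631 to 59719 CPM in Ctrl libraries (median 33945 CPM), ranges that overlap. The part of either cell type in the miR-126a difference was not tested.

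The rodent-specific cluster in an intron of Sfmbt2 was lower in 12 of 24 tested miRNAs and higher in none (25.9% and 17.4% over all tested miRNAs), with a median of -0.86 beside -0.16. miR-466f-3p stood at 1.02 to 35.7 CPM in 6 mice and at 110 CPM in mouse 3368, against 19.1 CPM or more, with a median of 55.1 CPM, in Ctrl blood (difference -2.09, SD 1.71; adjusted p = 0.0149). miR-297b-3p differed by -1.86 (SD 1.43; adjusted p = 0.0127). The sequences in this cluster are near-repeats, so single members are uncertain.

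Of 20 tested miRNAs of the MYC-linked clusters, 6 were called higher and 2 lower (17.4% and 25.9% over all tested miRNAs), with a median of 0.36. Without mouse 3334, 2 were called higher and 1 lower. The split depended on the scaling, with 2 higher and 4 lower under raw totals and 9 higher and none lower with centred libraries. The members with the largest differences were passenger arms, miR-92a-1-5p at 1.48 (SD 1.14; adjusted p = 0.0141) and miR-25-5p at 1.11 (SD 0.77; adjusted p = 0.0129). In the clusters of miR-23, miR-24 and miR-27, 4 of 11 were called higher and none lower, beside 17.4% and 25.9% over all tested miRNAs. Here too a passenger arm led. miR-27a-5p stood at 903, 298, 743, 1027, 595 and 108.3 CPM in mice 3338, 3357, 3341, 3334, 3336 and 3370 and at 20.1 CPM in mouse 3368, against 15.5 to 280 CPM in Ctrl blood (difference 2.81, SD 1.86; adjusted p = 0.00696), while the far more abundant miR-27a-3p differed by -0.14 (adjusted p = 0.618).

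The counts of the lists that follow stand beside 17.4% higher and 25.9% lower over all tested miRNAs, and several are close to these shares. Of 10 tested myeloid miRNAs, 4 were called lower and none higher, namely miR-143-3p, miR-145a-5p, miR-338-3p (-1.45) and miR-223-5p (-0.64). Of these, miR-143-3p and miR-145a-5p also stand in the vessel wall list. The abundant miR-223-3p differed by -0.34 and was not called. Of 12 lymphocyte miRNAs, let-7g-5p was called higher and miR-181a-5p and miR-30b-5p (-0.80, SD 0.41; adjusted p = 0.0106) lower, and 1 was called lower without mouse 3334 or without Ctrl mouse 3335. Summed myeloid levels were 68943 to 113429 CPM in CM and 62460 to 131960 CPM in Ctrl libraries, and summed lymphocyte levels were 84264 to 211401 and 70745 to 194016 CPM. In the families of miR-29 and miR-30, 2 of 11 were called lower, miR-30a-5p (-1.51) and miR-30b-5p, and 1 higher, miR-30e-3p (0.53). Of 14 tested inflammatory miRNAs, 5 were called higher, the 4 arms of miR-132 and miR-212 and miR-21a-3p (0.85), and 3 lower, miR-147-3p, miR-3473b and miR-9-5p. In the X-linked cluster of miR-188 to miR-660, miR-500-3p was called lower (-1.24, SD 0.41; adjusted p = 0.00361) and the other 7 tested were not called.

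With the month 6 library of mouse 3334 in place of month 6.5, no member was called in the lists of the MYC-linked clusters, let-7, the miR-181 family, the miR-23, miR-24 and miR-27 clusters, the families of miR-29 and miR-30, and lymphocytes. No member was called lower among the stem and progenitor, endothelial and platelet lists, where both arms of miR-126a remained higher, and 2 were called lower in the Sfmbt2 cluster. In the erythroid list miR-182-5p, miR-183-5p and miR-96-5p lost their calls, and miR-451a was still called lower.

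**Figure D4:**
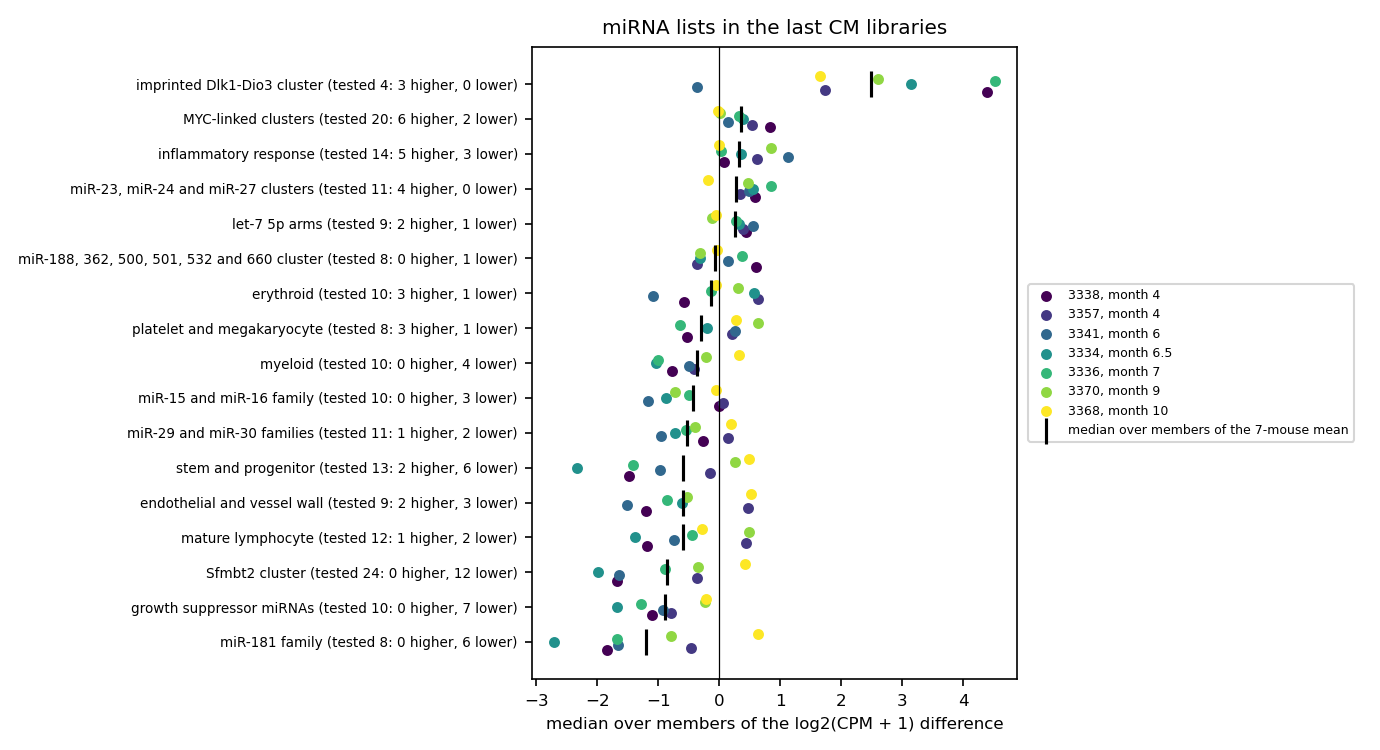
Median log2(CPM + 1) difference over the tested members of each list in each CM mouse (colored points) and of the means over 7 mice (black bars). The miR-181 family, the list headed growth suppressors (which holds miR-221 and miR-222) and the Sfmbt2 cluster lie lowest. Mouse 3368 is above 0 for the miR-181 family and the Sfmbt2 cluster. The Dlk1-Dio3 cluster lies highest, but only 4 of its 56 listed members were tested. Members can pass the filter through the CM libraries in which they are high, so nothing is read from its place.

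Over all hairpins with both arms tested, Pearson's r between the differences of the arms was 0.71, a description across hairpins that share libraries. The arms had opposite signs in 26.8% of these hairpins. Both arms were called for 40 (29%), in the same direction for 38 (15 higher, 23 lower) and in opposite directions for 2. These 2 were let-7g, with 0.88 for the abundant 5p and -0.68 for the 3p at 3.86 CPM, and miR-30b, with -0.80 for the 5p and 0.99 for the 3p.

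RefSeq sequences were matched for 434 of 528 tested and 186 of 229 called miRNAs, and 15 of the 47 seed families with 2 or more tested members had 2 or more called members. Of these, 9 were called only lower, 3 only higher and 3 in both directions. The only-higher seeds were those of miR-132-3p with miR-212-3p, of miR-128-1-5p with miR-128-2-5p, and of miR-26a-2-3p with miR-26b-3p. The seeds called in both directions were those of let-7, of miR-17-5p with miR-106b-5p, and of miR-148a-3p with miR-148b-3p and miR-152-3p.

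The library just before the last one was used to describe how recent these differences were, with no test. In mouse 3341, 89 miRNAs were over 1 log2 unit from Ctrl at month 5 and 242 at month 6. In mouse 3370, 58 were at month 8 and 146 at month 9, and in mouse 3338, 144 at month 3 and 259 at month 4. Mice 3357 and 3336 were already close to their final counts, with 200 before 232 in mouse 3336 and 151 in the last library of mouse 3357, where 72 were higher and 67 lower by more than 1 log2 unit before, and mouse 3368 had 75 before 62. The library before the last of mouse 3334 was the one labelled month 6, with 40 before 275.

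**Figure D5:**
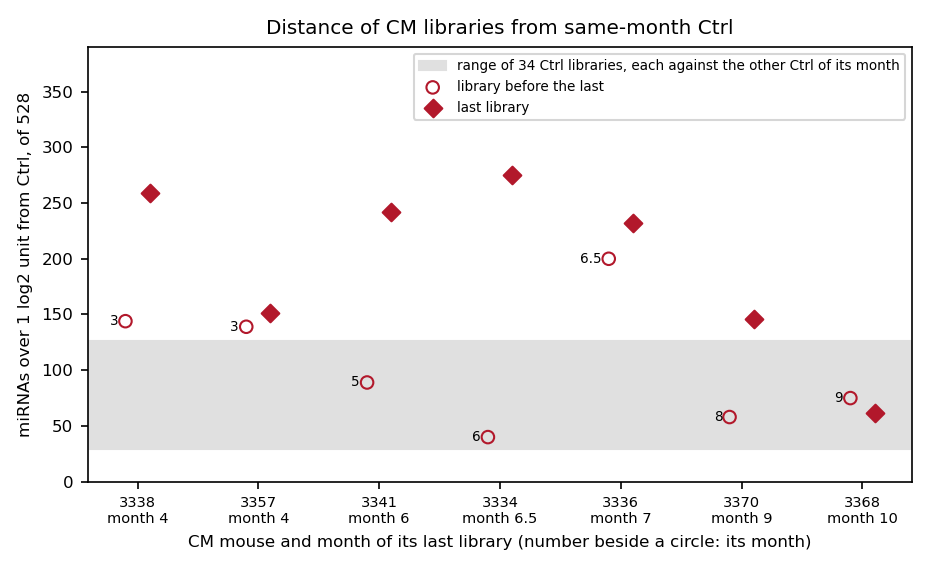
Number of the 528 tested miRNAs more than 1 log2 unit from the same-month Ctrl mean, in the last library of each CM mouse (filled diamonds) and in the library before it (open circles, with its month). The grey band spans the 34 Ctrl libraries, and in the last library all mice but 3368 lie above it.

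Some miRNAs were already displaced in that earlier library and others were not. miR-451a was within -0.55 to 0.92 of Ctrl in the library before the last (median 0.20) and at -2.51 to -0.62 in the last one. The same held for miR-497a-5p, with a median of -0.11 before and -2.07 in the last, for miR-195a-5p, with 0.02 before and -3.26 to 0.12 in the last, for miR-221-3p, with 0.01 and -1.69, and for miR-222-3p, with 0.36 and -1.62. By contrast, miR-500-3p (-1.51 and -1.40), miR-1249-3p (-1.33 and -1.60) and miR-345-5p (-0.98 and -1.83) were lower in both. Medians without mouse 3334 were 0.25 for miR-451a and -1.23 for miR-345-5p in the earlier library. miR-126a-3p was at 3.81 and 3.68 at month 3 in mice 3338 and 3357, which changed little by month 4 (3.73 and 3.29), whereas it was 1.63 at month 5 and 4.61 at month 6 in mouse 3341, and 0.75 and 3.38 in mouse 3336.

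At month 0, before induction, the same mice were set against Ctrl in the same way, as a background for the last libraries. Then 2 of 528 miRNAs (0.379%) were called, miR-466n-3p (0.74, adjusted p = 0.0209) and miR-505-5p (-0.73, adjusted p = 0.0273). An unadjusted p under 0.05 in limma was found for 23.3%, far above the share this threshold gives without any difference. Every month 0 difference subtracts the mean of the same Ctrl libraries, whose error the test leaves out, so its p-values can be too small. In the last libraries Ctrl libraries are shared in part, and the 229 calls carry the same limit. miR-505-5p was also lower in the last libraries (-0.68). The change of each mouse from its month 0 difference was called for 169 miRNAs (32%), 61 higher (11.6%) and the others lower (20.5%). Calls of the same direction in the last libraries made up 82.2% of these and 60.7% of the 229, and the comparisons share the last libraries. miR-126a-3p differed by -0.38 (SD 0.28) at month 0 and changed by 3.36 (SD 1.60; adjusted p = 0.00529). miR-451a differed by -0.12 at month 0 and changed by -1.43 (SD 0.30; adjusted p = 0.00529). The count of 169 was 54 without mouse 3336, 93 without mouse 3341 and 96 without mouse 3338, and 20.1% and 20.5% of the tested miRNAs were called without mice 3334 and 3370.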

How the data were processed

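MicroRNA sequencing of PBMC RNA was analysed from the table of raw counts that the authors deposited for the training cohort, whole-number counts of 1863 mature miRNAs made with mirTOP at settings not given in the sources used here. The deposited normalized CPM, a TMM-scaled signal over 1895 miRNAs, was used for alternatives, and 100% of its values were whole reads (tolerance 0.01). The submitters' notes name cutadapt, Bowtie, SAMtools, edgeR and GRCm38, whereas the study's methods name another build, so coordinates are those of RefSeq. The deposited CPM of the validation cohort was not used.

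CPM was computed from the counts with TMM scaling over 129 libraries (edgeR 4.0.16, R 4.3.3), as log2(CPM + 1), which understates changes near 1 CPM. filterByExpr on the 41 libraries kept 528 miRNAs. The 7 differences were tested with limma 3.58.1 (two-sided moderated test, BH), the same test was applied at month 0 and to the change, and both arms of miR-126a were tested with an exact permutation test over mice. Ctrl libraries are shared by mice 3338 and 3357 and by mice 3334 and 3341. The 7 CM mice limit the precision, and 3 counts correspond to 0.770 CPM at the median total. The tests were checked on simulated data with independent libraries and the same change in every CM mouse. These data are less even, so that check does not cover differences between mice or repeated Ctrl mice. Alternatives were edgeR, DESeq2 1.42.0, voom with the mouse as a block, mouse-level limma, other scalings, filters and pseudocounts, and libraries left out. Centring, a test on reads recovered from the deposited CPM, and the list and overlap counts with libraries left out were chosen after seeing the data.

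Named miRNAs were both arms of miR-126a, 3 markers, the 10 largest called differences in each direction with all 7 of the same sign and a mean of 10 CPM or more in either arm, and the 2 largest called in each list. Others were named where a count was small or for a cluster or an arm, after their values were seen. The members and lists were chosen with earlier results of these data known. Mice are numbered as in the labels, so the numbers pair no CM with a Ctrl mouse.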

Additional observations from a re-analysis of the deposited data

Results flagged for a closer look

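The 46 named miRNAs, 5 measures of the libraries and 10 groups of Ctrl libraries by month were screened for outlying values. In 2 of the named miRNAs the value of 1 mouse lay far from the other 6, both in mouse 3368 at month 10. About 1 in 20 groups is expected to show this by chance, so 2 is no more than that share gives. The difference of miR-25-5p was -0.59 in this mouse and 1.12 to 1.65 in the others. The difference of miR-142a-3p, the pan-hematopoietic marker, was -0.76 in this mouse and -0.31 to 0.03 in the others.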

How the results depend on the processing

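The count of 229 called miRNAs lay between 154 and 272 when any 1 CM or Ctrl mouse was left out, and at 172 without mice 3334 and 3335 together. It fell to 61 with the month 6 library of mouse 3334, where 23 of the 43 called named miRNAs lost their call. Limma on mouse levels called 233, edgeR with the G number of the titles, which the labels do not explain, 234, DESeq2 304, edgeR on reads recovered from the deposited CPM 305 of 518, and voom with the mouse as a replicate block 293. Mouse numbers pair no CM with a Ctrl mouse. Without a filter on low counts 179 of 1769 were called, which held 55.5% of the 229. Only Ctrl libraries of the same sex gave 189. The calls at month 0 were 10 with the deposited CPM and 0 to 9 with 1 mouse left out and 16 without mice 3334 and 3335, and those of the change from month 0 were 54 to 219 with 1 mouse left out. miR-142a-3p, not called, turned to 0.15 with Ctrl of the same sex. The exact test of both miR-126a arms stayed at the smallest p of each design in the alternatives run for it. The cause of these changes was not tested. A few counts per library limit miR-669a-3p (0 to 37 in CM), whose call was lost in voom (adjusted p = 0.270) and in edgeR with the G number (adjusted p = 0.157).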
